A study of Mus musculus with 6 samples.

Results

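The unfolded protein response and endoplasmic reticulum (ER) stress genes examined here were 30 genes of its PERK, IRE1 and ATF6 branches. They were read by 69 of the 45101 probe sets of a mouse Affymetrix array, taking every probe set that the platform annotation gives exactly 1 gene symbol among the 30. The RNA came from motor neurons of the mouse brainstem, with 3 RNA samples of wild-type mice (WT) and 3 of SOD1 mice, 1 array each. The SOD1 gene encodes copper-zinc superoxide dismutase. The sources used here do not state the allele, age or strain of the mice, how the neurons were collected, or that each sample was a separate animal. The p-values thus measure the spread between these samples alone, which may in part be technical.

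Proteins that enter the ER are folded there by lumenal chaperones, glycan-binding lectins and disulfide isomerases. When unfolded protein accumulates, 3 membrane sensors respond. PERK (Eif2ak3) phosphorylates the initiation factor eIF2 and lowers translation while favouring that of ATF4; IRE1 (Ern1) splices the Xbp1 transcript; and ATF6 is cut in the Golgi to release a transcription factor. The factors released by these branches raise transcription of chaperones and of ER-associated degradation, and under lasting stress ATF4 and CHOP (Ddit3) favour cell death. The response has been studied in motor neurons of mutant SOD1 mice, where misfolded SOD1 protein is present.

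The promoters of several of these genes share a short element through which ATF6 and XBP1 act. Genes with the element are not the same group as those assigned to the ATF6 branch. Dnajc3 has the element and was assigned to the IRE1 branch, and Pdia4 lacks it and was assigned to the ATF6 branch. RefSeq promoter windows (GRCm38.p6, 250 bases before to 50 after the start) matched 26 of the 30 genes. The ER stress element, CCAAT and CCACG with 9 bases of any kind between them, searched on both strands like the others, was found in 7 of these 26 windows (26.9%), against 39 of all 32851 windows of that length (0.119%). The 7 genes were Calr, Canx, Creld2, Dnajc3, Hsp90b1, Hspa5 and Pdia6, and Hsp90b1 had 2 matches. The related element of ATTGG and CCACG with 1 base between them was found in 2 windows, those of Dnajb11 and Herpud1 (0.0365% of all windows), and TTGCATCA, a composite site that ATF4 can bind, in those of Chac1 and Herpud1 (0.895% of all windows). The letters TGACGTGG, a binding site of XBP1 and ATF6 (0.676% of all windows), were in 0 of the 26. TGATGNAAT, the form of an amino acid response site that was searched for (0.965%), was also in 0 of the 26. The Asns window holds TGATGAAAC, which differs from it in the last base only and was not searched for. The elements' shared CCACG was in 21 of 26 windows and in 32.8% of all. The matched bases are in capitals, and a match is a description of letters, not of a bound site.
Hspa5, chr2:34771840-34772089, plus strand: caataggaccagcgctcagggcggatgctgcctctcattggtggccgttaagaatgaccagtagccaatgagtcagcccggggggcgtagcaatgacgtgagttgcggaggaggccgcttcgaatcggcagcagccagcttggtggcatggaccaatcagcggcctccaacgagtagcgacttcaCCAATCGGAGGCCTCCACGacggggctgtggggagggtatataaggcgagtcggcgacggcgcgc
Calr, chr8:84846932-84847181, minus strand: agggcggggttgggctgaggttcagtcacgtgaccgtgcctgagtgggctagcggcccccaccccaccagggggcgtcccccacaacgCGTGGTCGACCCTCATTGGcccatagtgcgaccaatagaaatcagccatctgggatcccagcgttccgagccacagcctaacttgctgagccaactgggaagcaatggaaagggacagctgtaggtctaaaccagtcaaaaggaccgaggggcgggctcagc
Hsp90b1, chr10:86705445-86705694, minus strand: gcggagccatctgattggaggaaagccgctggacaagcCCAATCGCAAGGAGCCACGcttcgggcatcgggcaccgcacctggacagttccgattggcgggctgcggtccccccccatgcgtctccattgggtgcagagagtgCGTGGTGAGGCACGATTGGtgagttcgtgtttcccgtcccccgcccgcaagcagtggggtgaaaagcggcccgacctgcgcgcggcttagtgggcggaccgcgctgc
Pdia6, chr12:17266471-17266529, plus strand: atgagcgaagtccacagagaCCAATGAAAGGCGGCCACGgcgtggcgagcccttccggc
Canx, chr11:50325780-50325838, minus strand: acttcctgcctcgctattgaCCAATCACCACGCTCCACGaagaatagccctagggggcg
Dnajc3, chr14:118937807-118937865, plus strand: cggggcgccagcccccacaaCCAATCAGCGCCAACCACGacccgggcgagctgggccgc
Creld2, chr15:88819500-88819558, plus strand: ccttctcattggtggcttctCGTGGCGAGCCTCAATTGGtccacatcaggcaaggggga
Herpud1, chr8:94386309-94386393, plus strand: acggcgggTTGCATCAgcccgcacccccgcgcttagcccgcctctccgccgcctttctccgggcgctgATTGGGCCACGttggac
Chac1, chr2:119351029-119351076, plus strand: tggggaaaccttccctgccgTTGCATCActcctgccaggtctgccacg
In the direction of the gene, the Hspa5 element lay 65 to 47 bases before the start, and the Hsp90b1 elements 212 to 194 and 107 to 89 bases before it. Those of Calr and Creld2 and the nearer one of Hsp90b1 are in the reverse orientation, so that the capitals begin with CGTGG.

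Median signals of the 6 arrays lay between 267 and 315 as deposited, and precision is limited by having 6 arrays. Of 12 motor neuron markers tested, 0 passed the test used below and none was at the background level on any array, among them Chat, choline acetyltransferase, which averaged 9.43 ± 0.40 and 9.04 ± 0.55 (WT and SOD1, log2 signal ± SD, n = 3). Of the 12, 4 had a positive and 8 a negative difference (SOD1 minus WT), with a median of -0.10 on the log2 scale. Their summed signal ran from 578944 to 633593 in WT and from 520352 to 575807 in SOD1, without overlap but with a narrow gap. The brightest genes weigh most in this linear sum, Nefl averaging 17.39 in WT on the log2 scale and Chat 9.43. Chosen after their values were seen, Ache, acetylcholinesterase, gave -1.06 and Slc18a3, the vesicular acetylcholine transporter, -0.996 (adjusted p = 0.117 and 0.131 by limma), and Uts2, urotensin 2, gave 2.02 (adjusted p = 0.246). Signals of other cells differed between the groups. All 13 microglial markers tested, of 14 on the array, had a positive difference, with a median of 2.51 on the log2 scale. Their summed signal ran from 10485 to 45157 in WT and from 111064 to 196465 in SOD1. Of the 13, 4 were at the background level on at least 1 array and 0 on all. Itgam and P2ry12, at 7.03 and 7.19 in WT, passed the filter on low mean signal (level 7.38) only through SOD1. This favours a positive sign. Astrocyte markers had a positive difference in 9 of 10 (summed signal 242854 to 267981 in WT, 295477 to 303427 in SOD1), oligodendrocyte markers in 9 of 9 (192228 to 222886, and 256164 to 273897), and endothelial and mural markers in 0 of 9 (28355 to 68249, and 5546 to 19532). Of the last, Tagln, at 6.51 in SOD1, passed the filter only through WT. By limma, Tyrobp rose (4.48 ± 0.58, SE, adjusted p = 0.0268), as did Gfap (3.38 ± 0.47, adjusted p = 0.0317), and Acta2 fell (-5.02 ± 0.77, adjusted p = 0.0327). These calls were lost in 5 of 18 alternatives for Tyrobp, 5 of 17 for Gfap and 6 of 17 for Acta2. All 3 were lost without WT replicate 2, without SOD1 replicate 2 and with no variance trend, those of Tyrobp and Gfap also without SOD1 replicate 1 and with a term for Xist, and that of Acta2 also without WT replicate 1, without SOD1 replicate 3 and with robust eBayes. SOD1 replicates 1 and 2 also stood apart in Xist, an RNA of female cells, at 14.71 and 14.63. It was at 7.33 in SOD1 replicate 3 and at 7.27 to 7.75 in WT. Sex may thus be partly confounded with genotype, and with 6 arrays the effects of each cannot be told apart. The ER stress genes are expressed in most cell types, and the part of these marker shifts in the differences below was not tested. In RNA from many cells, fewer cells of a type and less RNA per cell cannot be told apart.

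**Figure D1:**
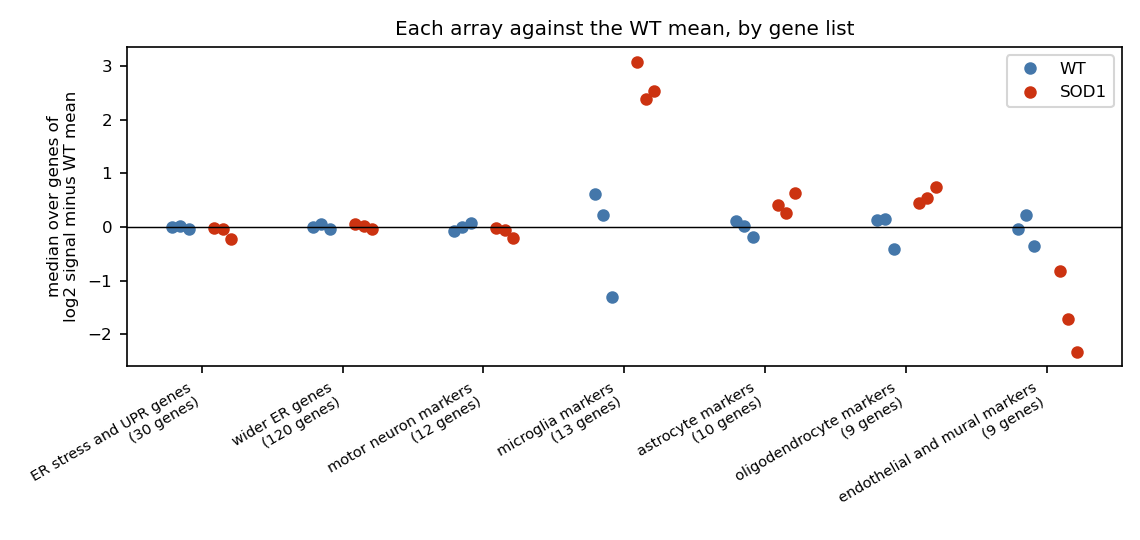
Each point is 1 array, and its height is the median over the genes of a list of log2 signal minus the gene's WT mean, with the 3 WT arrays in blue and the 3 SOD1 arrays in red. The 30 ER stress genes lie between -0.21 and 0.02 on all 6 arrays, whereas the microglial markers lie between 2.38 and 3.09 on the SOD1 arrays and the endothelial and mural markers between -2.33 and -0.82.

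No ER stress gene passed the test between SOD1 and WT, and the group as a whole lay close to its WT level. Of the 69 probe sets, 59 were above the filter on low signal, with at least 1 for each of the 30 genes, and the other 10 were at the background level on 3 or more arrays. Of the 59, 0 were higher and 0 lower in SOD1 by limma at an adjusted p under 0.05, a threshold that 0.0629% of all 27022 probe sets tested passed upward and 0.122% downward. At an unadjusted p under 0.05, 4 of the 59 were higher, against 7.09% of all probe sets, and 7 were lower, against 7.58%, 3 of these being the probe sets of Calr. All 3 SOD1 arrays were above all 3 WT arrays for 9 of the 59, against 10.5% of all, and below them for 10, against 9.81%. A dim Edem1 probe set, counted among the 4 and the 9, passed the filter only through SOD1. The difference was positive for 30 of the 59, against 49.5% of all. Taking for each gene its brightest probe set, 11 genes had a positive and 19 a negative difference. The median was -0.10 on the log2 scale (quartiles -0.26 and 0.12), against -0.01 (quartiles -0.34 and 0.31) over all 13123 genes tested. The sign of the median of the 30 genes depended on the scaling of the arrays. With median centring it was 0.02, where the median over all genes was 0.05. Its size depended on single arrays, at -0.17 without WT replicate 2, -0.05 without WT replicate 3 and -0.06 without SOD1 replicate 3. With a term for Xist it was -0.22.

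The precision of these differences is given by their 95% confidence intervals, which are not adjusted for the number of genes. For 26 of the 30 genes the interval of the brightest probe set lay below a 2-fold rise, and for 25 it lay above a 2-fold fall; for 21 it excluded both. For 6 genes it excluded a 1.5-fold difference in either direction, and for all 30 a 4-fold one. The SD between the 3 arrays of a group had a median over the genes of 0.35 in WT and 0.24 in SOD1. In simulated data with the spread of all probe sets tested, the test recovered 19.6% of 2-fold shifts. A count of 0 by the test thus does not by itself exclude 2-fold differences.

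**Figure D2:**
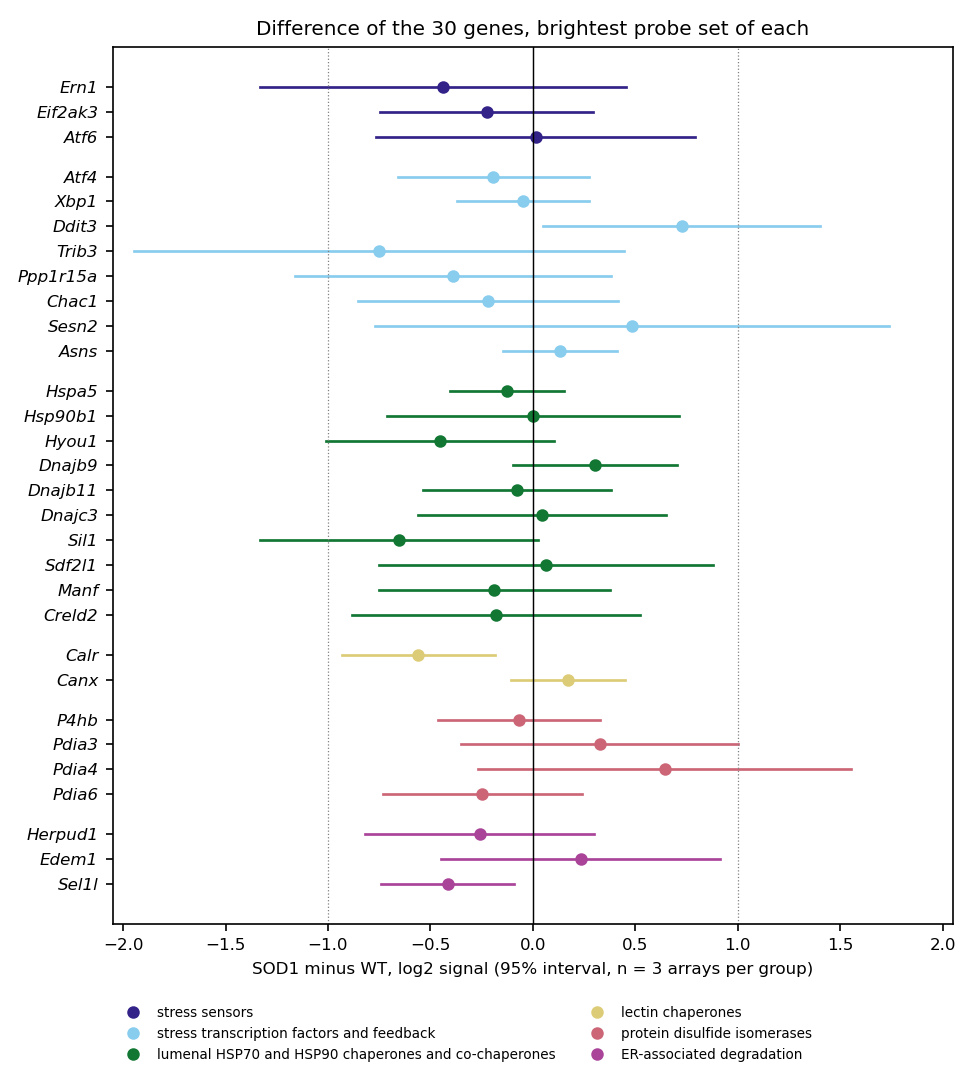
SOD1 minus WT difference in log2 signal (horizontal axis) of the brightest probe set of each of the 30 genes, with bars for the 95% interval (3 arrays per group) and colours for the role of the gene. Dotted lines mark a 2-fold difference in either direction, and the intervals of Calr, Sel1l and Ddit3 leave out 0 before adjustment for the number of probe sets tested.

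Transcripts of the 3 stress sensors did not pass the test. Eif2ak3 (1449278_at), which encodes PERK, was at 13.22, 12.89 and 13.63 on the WT arrays 1 to 3 and at 13.02, 12.76 and 13.28 on the SOD1 arrays (log2 signal), a difference of -0.23 ± 0.24 (log2, SE). The groups overlapped. Ern1 (1437119_at), the IRE1 sensor, was at 12.02, 11.10 and 10.59 in WT and 10.45, 11.41 and 10.53 in SOD1, a difference of -0.44 ± 0.41, with WT replicate 1 the highest array. Atf6 (1435444_at) was at 11.53, 11.19 and 12.16 in WT and 11.52, 12.27 and 11.13 in SOD1, a difference of 0.01 ± 0.35, again with overlap. The adjusted p by limma was 0.702 for Eif2ak3, 0.659 for Ern1 and 0.990 for Atf6. The sensors are activated as proteins, by phosphorylation or cleavage, which an RNA array does not measure.

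Ddit3, which encodes the transcription factor CHOP downstream of PERK and ATF4, had the largest positive difference among the brightest probe sets. Its probe set 1417516_at read 11.85, 11.69 and 10.95 in WT and 11.88, 12.18 and 12.61 in SOD1. All SOD1 arrays were above all WT arrays, though SOD1 replicate 1 exceeded WT replicate 1 by little. The difference was 0.73 ± 0.31 (1.65-fold, 95% interval 1.04-fold to 2.65-fold), with adjusted p = 0.312 by limma. Without WT replicate 3 it was 0.45, below the 1.05 of Pdia4 in the same setting, and without WT replicate 1 or SOD1 replicate 3 Sesn2 was above Ddit3 (0.99 against 0.90, and 0.90 against 0.53). A dimmer Ddit3 probe set, 1443897_at, gave 0.42 ± 0.80, with overlapping groups and 2 arrays at the background level.

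The 2 tested probe sets of Atf4, the factor made when eIF2 is phosphorylated, went opposite ways. The brighter, 1448135_at, read 13.49, 13.86 and 14.18 in WT and 13.90, 13.49 and 13.55 in SOD1, a difference of -0.19 ± 0.21 with overlapping groups. The other, 1438992_x_at, read 12.59, 12.29 and 11.91 in WT and 12.99, 13.20 and 13.42 in SOD1, so that all SOD1 arrays were above all WT arrays. Its difference was 0.94 ± 0.24 (1.92-fold), with adjusted p = 0.135 by limma, the lowest adjusted p of the 59. The ending _x_at marks a probe set whose probes may also match other transcripts.

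Targets of ATF4 did not share a direction. Asns, asparagine synthetase, gave 0.13 ± 0.13 with 1451095_at, whose groups overlapped. Its other probe set, 1433966_x_at, read 14.76, 14.82 and 14.81 in WT and 15.34, 15.11 and 15.22 in SOD1, a difference of 0.43 ± 0.13 without overlap (adjusted p = 0.166 by limma). Trib3, a pseudokinase that CHOP induces, gave -0.75 ± 0.54, and Sesn2, a stress-inducible regulator of growth signalling, 0.48 ± 0.57. Their standard errors were the largest among the brightest probe sets, with Sesn2 running from 8.25 to 10.51 within WT and Trib3 at the background level on 1 SOD1 array. The Sesn2 difference turned to -0.13 without WT replicate 3 and to -0.40 with a term for Xist. Over the alternatives, the Trib3 difference ran from -1.13 to -0.05. The other tested probe sets of Trib3 and Sesn2 had the opposite sign, at 0.30 ± 0.98 and -0.09 ± 0.64. Each had 2 arrays at the background level. Chac1, which degrades glutathione, gave -0.22 ± 0.29, and Ppp1r15a (GADD34), the subunit that directs dephosphorylation of eIF2, -0.39 ± 0.35. Over the 8 genes assigned to the PERK branch, 3 had a positive and 5 a negative difference, with a median of -0.21.

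Xbp1, whose transcript IRE1 splices, showed small differences in its brighter probe sets. The brightest, 1437223_s_at, read 15.15, 15.02 and 14.80 in WT and 15.05, 15.04 and 14.74 in SOD1, a difference of -0.05 ± 0.15 (95% interval -0.37 to 0.27; without quantile normalisation the difference was 0.04, and centring each array on its median gave 0.15). The other bright ones gave 0.04 ± 0.22 and 0.08 ± 0.19, and the dim 1420012_at gave 0.77 ± 0.41 with all SOD1 arrays above all WT arrays (adjusted p = 0.414 by limma). The sources used here do not say which splice form each probe set reads. Of the genes that XBP1 induces, Dnajb9 (ERdj4), a co-chaperone of BiP, gave 0.30 ± 0.18, and Dnajc3 (p58IPK), a co-chaperone that inhibits PERK, was positive with all 4 of its tested probe sets, between 0.05 and 0.54, none past the test.

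Edem1, a lectin that hands misfolded glycoproteins to degradation, had the largest positive difference of the 59 in a dim probe set. That probe set, 1424065_at, read 7.74, 7.50 and 5.63 in WT and 9.21, 9.23 and 9.12 in SOD1, a difference of 2.22 ± 0.63 (adjusted p = 0.156 by limma). Its WT mean of 6.96 was below the filter level of 7.38, so it passed the filter only through SOD1. This favours a positive sign. The SOD1 arrays were close to each other and above all WT arrays, and WT replicate 3 was at the background level; without it the difference was 1.56. The brighter Edem1 probe set, 1451218_at, read 11.53, 11.03 and 10.81 in WT and 11.78, 11.13 and 11.16 in SOD1, a difference of 0.23 ± 0.31 with overlap. Its 95% interval, -0.45 to 0.91, does not reach the value of the dim one. The 5 genes of the IRE1 branch had a median of 0.05, with 3 positive and 2 negative.

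**Figure D3:**
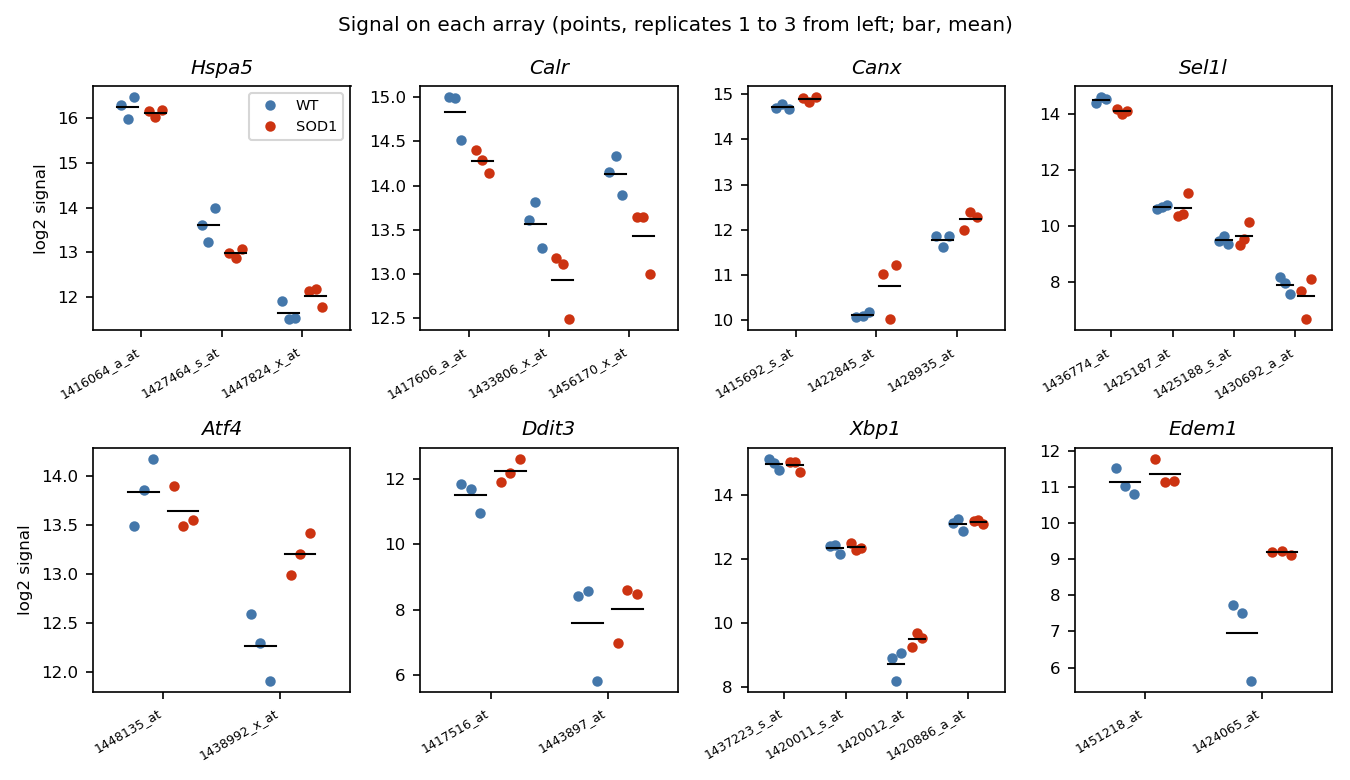
Log2 signal (vertical axis) on each array for every tested probe set of 8 of the genes, with WT in blue, SOD1 in red, replicates 1 to 3 from left to right and bars for the group means; the vertical scales differ. All SOD1 arrays lie below all WT arrays for the 3 Calr probe sets, whereas the probe sets of Hspa5, Atf4, Xbp1 and Sel1l differ in sign among themselves.

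Hspa5, which encodes BiP, the main HSP70 chaperone of the ER and the usual reading of the response, did not differ in its brightest probe set beyond the spread. That probe set, 1416064_a_at, read 16.29, 15.98 and 16.47 in WT and 16.17, 16.02 and 16.17 in SOD1, all SOD1 arrays lying within the WT range. The difference was -0.13 ± 0.13, with a 95% interval from 0.755-fold to 1.11-fold (adjusted p = 0.681 by limma). A second probe set, 1427464_s_at, read 13.61, 13.23 and 13.99 in WT and 13.00, 12.87 and 13.08 in SOD1, a difference of -0.63 ± 0.22 without overlap (adjusted p = 0.234). The third, 1447824_x_at, gave 0.38 ± 0.25 with overlap. Without quantile normalisation the difference of the brightest probe set turned positive, to 0.0032, and centring each array on its median gave 0.11.

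The remaining lumenal chaperones were mixed. Hsp90b1 (GRP94), the HSP90 of the ER, gave -0.0007 ± 0.32 with its brightest probe set, which ran from 12.90 to 14.37 within WT, and 0.44 ± 0.24 with 1415889_a_at, where all SOD1 arrays were above all WT arrays. Hyou1 (GRP170), a nucleotide exchange factor of BiP, read 11.71, 11.53 and 11.55 in WT and 11.15, 11.26 and 11.02 in SOD1, a difference of -0.45 ± 0.25 without overlap (adjusted p = 0.436 by limma), and its other tested probe set gave -0.95 ± 0.52. Sil1, the other nucleotide exchange factor of BiP in the list, read 11.61, 11.76 and 11.81 in WT and 11.49, 10.48 and 11.26 in SOD1. Its groups did not overlap, SOD1 replicate 2 was the lowest, and the difference was -0.65 ± 0.31 (adjusted p = 0.358 by limma).

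The co-chaperones and secreted stress proteins were closer to 0. Dnajb11 (ERdj3) gave -0.08 ± 0.21, Sdf2l1, which works with it, 0.06 ± 0.37, Manf, a secreted neurotrophic factor kept in the ER by BiP, -0.19 ± 0.26, and Creld2 -0.18 ± 0.32. The groups overlapped for all 4. Of the 10 lumenal chaperone genes, 3 had a positive and 7 a negative difference, with a median of -0.10.

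Calr was the one gene with several probe sets that were all lower on every SOD1 array than on every WT array. It encodes calreticulin, the soluble lectin chaperone that also buffers ER calcium. The probe set 1417606_a_at read 15.00, 15.00 and 14.51 in WT and 14.40, 14.29 and 14.14 in SOD1, a difference of -0.56 ± 0.17 (1.47-fold lower, adjusted p = 0.175 by limma). The other 2, 1433806_x_at and 1456170_x_at, gave -0.64 ± 0.24 and -0.70 ± 0.22 (adjusted p = 0.248 and 0.184). None passed over all probe sets in any setting tried, where the adjusted p of 1417606_a_at ran from 0.103 to 0.473. The 3 probe sets read 1 gene on the same 6 arrays and are not separate evidence.

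Canx, calnexin, the membrane-bound partner of calreticulin, had positive differences in all 3 probe sets. The brightest, 1415692_s_at, read 14.69, 14.78 and 14.67 in WT and 14.90, 14.82 and 14.93 in SOD1, a small difference of 0.17 ± 0.13 without overlap, and 1428935_at gave 0.45 ± 0.24, also without overlap. The third gave 0.64 ± 0.36, with SOD1 replicate 2 below the WT arrays. None passed (adjusted p between 0.414 and 0.570 by limma). A test of Calr against Canx was not made.

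The disulfide isomerases showed no common direction. P4hb (PDI) gave -0.07 ± 0.18, and Pdia4 (ERp72) 0.64 ± 0.41, with WT values from 8.87 to 10.26 and overlap with SOD1; the Pdia4 difference was 0.36 without WT replicate 1 and 1.05 without WT replicate 3. Pdia3 (ERp57), which works with calreticulin and calnexin, gave 0.33 ± 0.31 with 1423423_at, which was 0.015 without WT replicate 3, 0.18 without SOD1 replicate 1, 0.53 without WT replicate 2, 0.52 without SOD1 replicate 3 and -0.068 with a term for Xist. Its dimmer 1445330_at read 10.95, 10.64 and 11.04 in WT and 10.34, 9.89 and 10.20 in SOD1, a difference of -0.74 ± 0.30 without overlap (adjusted p = 0.292 by limma). Pdia6 (P5) gave -0.25 ± 0.22 with 1423648_at, and -1.09 ± 0.47 with 1430983_at, whose SOD1 arrays were all below WT and of which 1 was at the background level (adjusted p = 0.317).

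Of the degradation genes, Sel1l, the adaptor of the HRD1 ubiquitin ligase, was lower on all SOD1 arrays in its brightest probe set. The values of 1436774_at were 14.39, 14.60 and 14.52 in WT and 14.19, 13.98 and 14.09 in SOD1, a difference of -0.42 ± 0.15 (1.33-fold lower, adjusted p = 0.235 by limma). The other 3 tested Sel1l probe sets overlapped between groups and gave -0.03 ± 0.32, 0.17 ± 0.37 and -0.43 ± 0.61. Herpud1 (HERP), an ER stress-induced partner of the same ligase, read 11.82, 11.46 and 11.49 in WT and 11.29, 11.34 and 11.36 in SOD1. The groups did not overlap, the difference was -0.26 ± 0.25, and a second probe set gave 0.04 ± 0.30.

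Probe sets of 1 gene often disagreed. Of the 19 genes with more than 1 tested probe set, 10 had all of them on the same side of 0 and 9 had both signs. Calr, Hyou1, Pdia6 and Ern1 were negative throughout, and Asns, Atf6, Canx, Ddit3, Dnajc3 and Edem1 positive throughout. Where each probe set lies in its transcript is not given in the sources at hand.

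**Figure D4:**
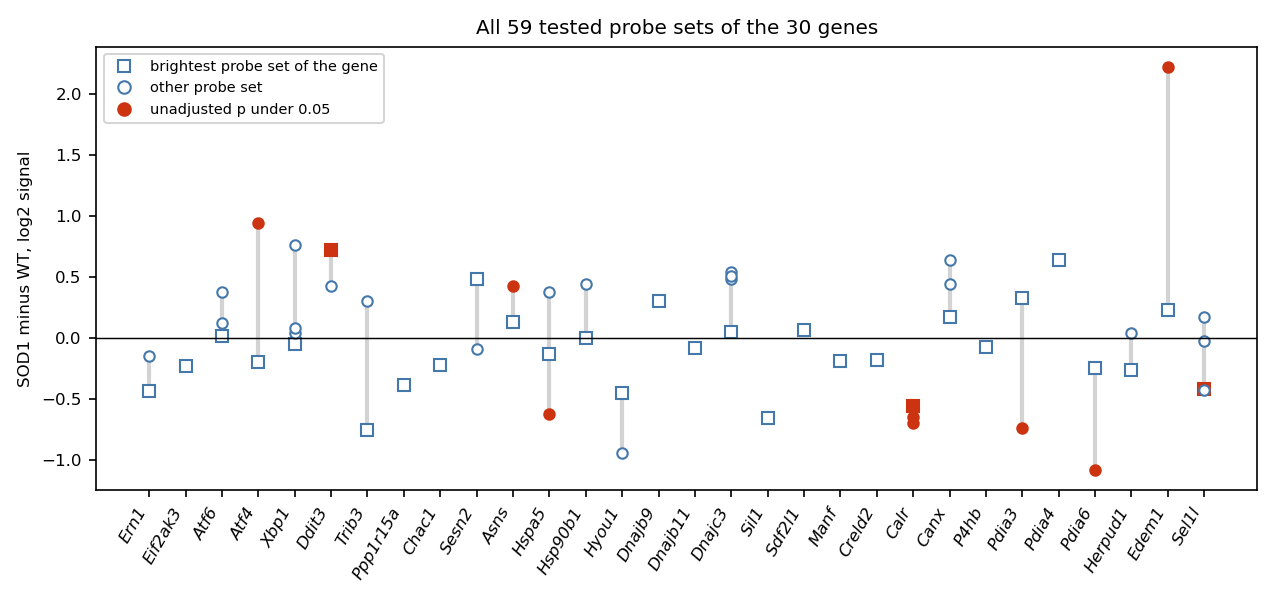
SOD1 minus WT difference in log2 signal (vertical axis) of all 59 tested probe sets, by gene, with squares for the brightest probe set of a gene, circles for the others and grey lines joining the extremes of a gene. The 11 red symbols have an unadjusted p under 0.05, and 9 of the 19 genes with several probe sets have symbols on both sides of 0.

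Set against the promoter sequences above, the 7 genes with an ER stress element had a median difference of -0.13, from -0.56 (Calr) to 0.17 (Canx), with 2 positive and 5 negative. The 19 other genes with a promoter window had a median of -0.07, with 8 positive and 11 negative. Herpud1 and Dnajb11, which carry the related element, were at -0.26 and -0.08. The 2 genes with TTGCATCA, Chac1 and Herpud1, were both negative. The 17 genes assigned to the ATF6 branch had a median of -0.13, with 5 positive and 12 negative.

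A wider list of ER genes gave the same count of 0. Of 131 genes, 120 were tested through 249 probe sets, of which 0 were higher and 0 lower by limma at an adjusted p under 0.05, with 19 higher and 16 lower at an unadjusted p under 0.05 (7.63% and 6.43%, against the 7.09% and 7.58% of all probe sets given above). The median over the 120 genes was -0.04, with 54 positive and 66 negative.

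Within the wider list, further genes of the eIF2 kinase and CHOP axis had a median of 0.28 over 15 genes, 10 of them positive. The values with the smallest p were those of Vldlr, a lipoprotein receptor under ATF4 control (0.76 ± 0.28 in 1 probe set, 0.23 ± 0.24 in its brightest and -0.05 to 0.45 in the other 4), and of Eif2ak1, the heme-regulated eIF2 kinase, whose 3 probe sets gave 0.82 ± 0.30, -0.66 ± 0.29 and 0.03 ± 0.29. Amino acid and aminoacyl-tRNA genes that ATF4 can induce had a median of -0.06 over 19 genes, 8 positive and 11 negative. Psat1, a serine synthesis enzyme, gave 0.76 ± 0.16 and 0.79 ± 0.21 in its 2 probe sets (adjusted p = 0.0986 and 0.146 by limma). In each of them all SOD1 arrays were above all WT arrays. Shmt2, a mitochondrial enzyme of serine use, gave -1.11 ± 0.28 without overlap (adjusted p = 0.133), and its other 3 probe sets lay between -0.70 and -0.26.

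IRE1 signalling and ATF6 processing genes were split, with 7 of 13 positive and 6 negative. Their median was thus the smallest positive value, 0.34, with quartiles of -0.18 and 0.50. Creb3, a transcription factor of the ER membrane related to ATF6, gave 0.96 ± 0.20 in 1419979_s_at (adjusted p = 0.0979 by limma, the lowest of the wider list) and 0.13 ± 0.22 to 0.86 ± 0.82 in 3 others. Its relative Creb3l2 gave -2.04 ± 0.65 in 1 probe set and 0.56 ± 0.45 in the other, the brighter. The dimmer averaged 6.97 in SOD1, with 1 SOD1 array at the background level, and passed the filter (level 7.38) only through WT. This favours a negative sign. Further degradation genes had a median of -0.04 over 22 genes, 7 of them positive, and those with the smallest p were Derl1, a channel component (0.62 ± 0.28), and Edem3 (0.41 ± 0.19, and 0.06 ± 0.46 in its other probe set). The brightest Derl1 probe set gave -0.14 ± 0.13.

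Folding, glycan and oxidation factors had a median of -0.16 over 20 genes, 8 of them positive. Among them Txndc5, a disulfide isomerase, gave -0.65 ± 0.22 in its brightest probe set and 0.44 ± 0.42 in the other. Uggt1, which senses unfolded glycoproteins, gave -0.77 ± 0.29 and -0.14 ± 0.31. Translocon, signal peptidase and retrieval genes had a median of 0.05 over 22 genes, 14 of them positive. At an unadjusted p under 0.05, 7 of its 48 probe sets were higher and 1 lower, against 7.09% and 7.58% of all probe sets. The same counts were 3 and 1 of 33 for the eIF2 kinase and CHOP axis, 5 and 6 of 42 for the amino acid genes, 1 and 1 of 24 for IRE1 and ATF6 processing, 2 and 0 of 39 for degradation, 1 and 3 of 42 for folding factors and 0 and 4 of 21 for calcium genes. Of the 7, 4 were those of Srp14, a signal recognition particle subunit (0.20 ± 0.09 to 0.45 ± 0.14). The brightest Ssr4 probe set gave 0.49 ± 0.16 and its other 2 gave -0.14 ± 0.30 and -0.18 ± 0.60. ER calcium genes had negative differences in 9 of 9, with a median of -0.16. Vapb, an ER membrane tether, gave -0.82 ± 0.20 and -0.75 ± 0.22 without overlap in 2 probe sets (adjusted p = 0.131 and 0.161 by limma) and 0.01 ± 0.24 in the third, and Itpr3, a calcium release channel, gave -0.92 ± 0.35.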

How the data were processed

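Per the labels, a T7-based method amplified the RNA in 2 rounds. The authors deposited a linear signal intensity for each probe set on each array, scaled so that the 2% trimmed mean is 2500.02 on all 6. The sources used here do not name the algorithm. Among 45101 probe sets were 64 controls. The platform annotation gave 34945 a single symbol and 932 several, and does not list 9160, which are unnamed here. For genes on the array under a newer symbol, RefSeq synonyms (GRCm38.p6) were used, and 122 of the 131 wider ER genes were found.

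The arrays were quantile normalised, 16 was added and log2 taken, which understates differences of low signals. The test took the 27022 probe sets whose mean log2 signal exceeded the 40th percentile. It was two-sided, by limma 3.58.1 (R 4.3.3; lmFit, then eBayes with trend), adjusted over all of them after Benjamini-Hochberg, at a threshold of 0.05. On each array, 27 bacterial control probe sets set the background level at their 95th percentile (7.21 to 7.61). A gene's brightest probe set is that with the highest mean log2 signal. Differences are given ± SE with n = 3 per group.

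All 30 genes are named; of each wider list, the 2 genes with the smallest p and any past the threshold; of the markers, Tyrobp, Gfap, Acta2 and Chat. Xist was added after its values were seen. The members and lists were chosen with earlier results of these data known. The fit was tested on simulated data with the spread of these probe sets, 200 of them shifted in each of 5 draws. At an adjusted p under 0.05 by limma, it recovered 3.2% of shifts of 0.5 on the log2 scale. For shifts of 1, 2 and 3 it recovered 19.6%, 66% and 84%, and 7.9% of calls were false. Alternatives covered scaling, pseudocount, filter, variance model, array weights, replicate number, Xist, shared probe sets and each array. Figures were drawn with matplotlib 3.10.9.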

Additional observations from a re-analysis of the deposited data

Results flagged for a closer look

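Of the 10 probe sets of these genes that the filter on low signal left out of the test, 2 were higher on all 3 SOD1 arrays than on all 3 WT arrays. The Eif2ak3 probe set 1453505_a_at read 4.99, 5.25 and 5.04 in WT and 7.83, 6.75 and 7.66 in SOD1 (log2 signal), a difference of 2.31. All 3 WT arrays and SOD1 replicate 2 were at the background level, and the bright Eif2ak3 probe set differed by -0.23. The Sel1l probe set 1453559_a_at read 6.90, 5.65 and 6.51 in WT and 7.77, 7.96 and 7.53 in SOD1, a difference of 1.40. The 3 WT arrays were at background level, and the brightest Sel1l probe set differed by -0.42. Neither difference was tested in the main comparison.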

How the results depend on the processing

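The counts of 0 higher and 0 lower held in all 18 alternatives for the 30 genes and for the wider ER list; the lowest adjusted p of the 59 was 0.135 and fell no lower than 0.0938, under a filter at the 60th percentile (Atf4 in both). With no variance trend and without WT replicate 2, 0 of all 27022 probe sets were called, and without SOD1 replicate 2, 0 higher and 4 lower, so these settings say little about the genes. The median over the 30 genes was -0.10, 0.020 with median centring, -0.22 with a term for Xist and -0.17 to -0.05 leaving out 1 array; against the median of all genes in the same setting it was -0.09, -0.03 with median centring and -0.21 with the Xist term. Some differences turned sign. With values as deposited Atf6 was at -0.057, Dnajc3 at -0.034, Hspa5 at 0.0032, Sdf2l1 at -0.051 and Xbp1 at 0.040. With median centring Hsp90b1 was at 0.086, Hspa5 at 0.11, P4hb at 0.091 and Xbp1 at 0.15. P4hb was at 0.017 with array weights. With the Xist term Atf6 was at -0.45, Eif2ak3 at 0.036, Pdia3 at -0.068, Sdf2l1 at -0.31 and Sesn2 at -0.40. Leaving out 1 array, Atf6 ran from -0.30 to 0.28, Hsp90b1 from -0.37 to 0.36, Sdf2l1 from -0.17 to 0.32, Xbp1 from -0.14 to 0.051, Dnajc3 from -0.16 to 0.23, Chac1 from -0.37 to 0.072, P4hb from -0.21 to 0.13, Sesn2 from -0.13 to 0.99, Creld2 from -0.48 to 0.057 and Manf from -0.45 to 0.072. The cause was not tested. Dim probe sets have no value under the filter at the 60th percentile, nor shared ones without shared probe sets. Same-numbered arrays did not deviate together (correlations of -0.04 to 0.03 across probe sets), and with the replicate number as a block 0 of the genes' probe sets were called, the median stayed at -0.10, and 36 of all probe sets were higher and 40 lower, against 17 and 33.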
